A study of Mus musculus with 18 samples.

Results

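The caseins are the main proteins of mouse milk. The mouse has 5 casein genes, Csn1s1 (ENSMUSG00000070702), Csn2 (ENSMUSG00000063157), Csn1s2a (ENSMUSG00000061937), Csn1s2b (ENSMUSG00000061388) and Csn3 (ENSMUSG00000001622), and they were taken by name, not by their values, from the 31053 genes counted. Their RNA was followed through 17 single-cell libraries of the mouse mammary gland from the embryo to the gland after involution, with a library of C57BL/6 skin at E18.5 as an outside background. The questions were in what order the caseins came on, in what ratio to each other, in which epithelial cells, and how far the counts in those cells stood above the counts in non-epithelial cells of the same library.

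Each library came from the pooled glands of several female mice. C57BL/6 mice gave the E18.5 mammary rudiment (embryos carrying an Lgr5-GFP reporter), the gland at postnatal day 5, the pre-pubertal gland at 2.5 weeks, microdissected ducts and terminal end buds (TEBs) at 5 weeks (mice carrying an E-cadherin-GFP reporter) and the virgin adult at 10 weeks, each as 1 library, and SWISS mice gave 1 virgin adult library at 10 weeks. FVB/NJ mice gave 3 virgin adult libraries at 10 weeks (A10, P7 and D12), 2 at day 12.5 of pregnancy (H and G), 2 at day 18.5 of pregnancy (F4 and B4), 2 at day 10 of lactation (F11 and D6) and 1 post-involution library. Its label places the post-involution library 3 weeks post birth, while the study's text places it 3 weeks after weaning. Cell suspensions were depleted of blood and endothelial cells and sorted on CD24 and CD29 for epithelium, and the estrous stage of the virgin animals was not recorded. Only the adult, pregnancy and lactation stages of FVB/NJ had replicate libraries, so all other stages are described without a test, and a p-value here measures the spread between pooled libraries.

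Caseins are secreted by the alveolar cells of the luminal layer, where they assemble with calcium phosphate into micelles. The alpha-type casein of Csn1s1, the beta-casein of Csn2 and the products of Csn1s2a and Csn1s2b (the mouse gamma- and delta-caseins) bind calcium and fill the micelle, and the kappa-casein of Csn3 coats its surface and keeps it in solution. Their transcription is driven by prolactin through the factor STAT5, together with glucocorticoid receptor and ELF5, and the luminal progenitor (LP) lineage gives rise to the alveolar cells, whereas mature luminal (ML) cells carry hormone receptors.

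The 5 genes lay in 1 cluster of 266458 bases on chromosome 5 (GRCm38, GENCODE annotation), with Csn1s1 at 87666208 to 87682578 on the plus strand, Csn2 at 87692624 to 87699630 on the minus strand, Csn1s2a at 87774567 to 87788797, Csn1s2b at 87808082 to 87824426 and Csn3 at 87925579 to 87932665, these 3 on the plus strand. The gaps between neighbours were 10045, 74936, 19284 and 101152 bases, and Odam, a gene of the enamel epithelium, lay in the last of them. STAT5 binds the letters TTCNNNGAA, which read the same on both strands. All 3 caseins with an entry in the RefSeq promoter table held them within 250 bases before to 50 bases after the RefSeq start, as did 2726 of all 32851 promoters of that length (8.30%). A match is a description of these letters and not evidence of binding. The 3 matches are shown with their flanks because the STAT5 element is the best known control of casein transcription, and capitals mark TTCNNNGAA.
Csn1s1, chr5:87666088-87666137, plus strand, the match beginning 100 bases before the RefSeq start: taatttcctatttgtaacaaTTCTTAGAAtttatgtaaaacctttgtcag
Csn2, chr5:87699489-87699538, minus strand, the match beginning 93 bases before the RefSeq start and inside the longer GENCODE gene: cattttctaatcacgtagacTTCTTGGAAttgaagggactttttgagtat
Csn1s2a, chr5:87774450-87774499, plus strand, the match beginning 20 bases past the RefSeq start and 97 bases before the GENCODE start: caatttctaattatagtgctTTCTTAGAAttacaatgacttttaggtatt
The Csn1s1 and Csn1s2a matches had the same 9 letters, and each promoter held 1 match.

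The measure was the number of unique molecular identifiers (UMIs, barcodes that mark single captured RNA molecules) at the 3′ end of each transcript, so counts did not grow with transcript length and caseins could be set side by side. The 17 mammary libraries held 9920346 to 93234616 UMIs and kept 1700 to 13397 cells, with a median of 2498 to 21609 UMIs a cell. Caseins took 0.0180% of all UMIs in the E18.5 rudiment and 56.5% (F11) and 52.9% (D6) in lactation, so a level is given per 10000 UMIs outside the milk list, that is outside the 5 caseins and 8 other milk proteins. No word of 31 bases was shared between the transcripts of any pair of caseins, so reads could be told apart between them.

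Cells were gated by the larger of summed keratin counts, basal for Krt5 and Krt14 and luminal for Krt8 and Krt18, and luminal cells were split into LP-gated (Kit, Elf5 and Aldh1a3) and ML-gated (Prlr, Cited1 and Areg). Cells with 3 or more UMIs of 15 fibroblast, endothelial, immune or mural genes, and more of them than of the keratins, were set apart first as non-epithelial. Genes not used by the gates set basal-gated and LP-gated cells apart in 17 of 17 libraries, the basal check genes being higher in the first and the luminal check genes in the second. Luminal cells that the LP and ML genes did not split stayed in the luminal-gated sums, and in 7 of the 16 libraries with 20 or more of them they carried more UMIs of the basal than of the luminal check genes. At day 5 these were 134 and 17.1 per 10000 (26.4 and 3.46 in basal-gated cells), before puberty 106 and 8.16, and in TEBs 34.6 and 4.55, where unsplit cells held 16.0% of the luminal-gated casein UMIs. In lactation unsplit cells held 44.8% (F11) and 26.5% (D6) of them. Cells with equal basal and luminal keratin counts stayed ungated. In lactation these were 19.4% (F11) and 17.4% (D6) of cells and held 21.5% and 13.2% of the library's casein UMIs, where LP-gated cells held 27.7% and 46.5%. Summed, the LP check genes (Cd14, Tspan8, Lcn2, Plet1) were higher in LP-gated than ML-gated cells in 16 of 17, E18.5 being the exception, and the ML check genes (Esr1, Pgr, Foxa1, Ly6a) were higher in ML-gated cells in 15 of 17, both lactation libraries being the exceptions. Esr1 by itself was higher in ML-gated than LP-gated cells there too, at 0.324 against 0.0843 (F11) and 0.574 against 0.400 (D6) per 10000. In lactation, 29.2% (F11) and 22.9% (D6) of gated cells lay within 1 UMI of the keratin line and 58.0% and 48.0% of split luminal cells within 1 UMI of the LP to ML line, against at most 8.82% and 35.6% in the 14 libraries other than these and E18.5. A gate is therefore a range of cells and not a cell type, and least of all in lactation and at E18.5.

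Libraries stood apart in ways that touch the caseins. Of the 3 adult FVB/NJ libraries, D12 held no Csn2 UMI in 3238 luminal-gated cells, while A10 held 131046 and P7 9503. F11 kept 48.6% of its barcodes as cells, and the barcodes it lost held 54.5% casein. P7 kept 74.6% of its casein UMIs, the lowest share of the 17, and its cell barcodes had 14 bases where those of all other libraries had 16. Any 2 libraries shared at most 2.41% of the cell barcodes of the smaller, and in the 11 libraries before pregnancy and after involution the shared barcodes held at most 9.04% of the casein UMIs of luminal-gated cells. P7 is among these, but its barcodes of 14 bases could match none of 16, so this says nothing about P7.

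Csn3, the kappa-casein, had the highest level of the 5 in every virgin library, Csn1s1, Csn2 and Csn1s2a stood above it from day 12.5 of pregnancy on, and Csn1s2b stood above it in lactation. In luminal-gated cells its level was 1.75 per 10000 at E18.5, 12.7 at day 5, 15.4 before puberty, 6.91 in TEBs, 20.6 in ducts, 3.73 in the C57BL/6 adult and 6.02 in the SWISS adult. In FVB/NJ it was 42.7 (A10), 24.8 (P7) and 6.23 (D12) in adults, 88.9 (H) and 88.0 (G) at day 12.5, 328 (F4) and 283 (B4) at day 18.5, 2805 (F11) and 1546 (D6) in lactation and 56.9 after involution. The adult libraries spread over a wide range, and every pregnancy library lay above all of them. LP-gated cells were 13.9% (A10), 12.2% (P7) and 14.4% (D12) of cells in adults and 42.0% (H) and 27.0% (G) at day 12.5. Within LP-gated cells alone the day 12.5 levels of Csn3 lay inside the adult range, as given below. The part of the cell make-up in the luminal-gated difference was not tested. The 2 lactation libraries were further apart as a ratio for Csn3 than for any other casein, with F11 the higher, whereas D6 was the higher for the other 4.

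Csn2, the beta-casein, was almost absent from virgin C57BL/6 glands. Its luminal-gated level was 0.0196 at E18.5 (68 UMIs), 0 at day 5, 0.000715 before puberty (1 UMI), 0 in TEBs, 0.137 in ducts, 0 in the C57BL/6 adult and 2.54 in the SWISS adult. A count of 0 allows up to 0.328% of cells with a UMI at day 5, 0.184% in TEBs, 0.0339% in the C57BL/6 adult and 0.0926% in D12, these limits covering counting error only. In FVB/NJ adults the level was 30.8 (A10), 16.1 (P7) and 0 (D12), so that 1 of the 3 was like the C57BL/6 glands. It was then 501 (H) and 511 (G) at day 12.5, 1595 (F4) and 1719 (B4) at day 18.5, 6818 (F11) and 9034 (D6) in lactation and 149 after involution.

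Csn1s1, the alpha-type casein, and Csn1s2a, the gamma-casein, were low in the same virgin libraries as Csn2. Csn1s1 ran at 0.449, 0.0820, 0.00643, 0.0285, 0.154, 0.00403 and 5.16 from E18.5 through day 5, pre-puberty, TEBs, ducts and the C57BL/6 adult to the SWISS adult. It stood at 20.3 (A10), 10.6 (P7) and 0.0131 (D12) in adults, 291 (H) and 286 (G) at day 12.5, 798 (F4) and 835 (B4) at day 18.5, 5085 (F11) and 6828 (D6) in lactation and 74.7 after involution. At E18.5 and in the SWISS adult Csn1s1 was the second most abundant casein after Csn3, while Csn1s2a came behind Csn2 in both. Csn1s2a ran at 0.00548, 0.0140, 0.0122, 0.00317, 0.148, 0.00604 and 0.519 over the same 7 libraries. Its FVB/NJ levels were 38.8 (A10), 23.8 (P7) and 0.00856 (D12) in adults, 539 (H) and 541 (G) at day 12.5, 1377 (F4) and 1349.6 (B4) at day 18.5, 4886 (F11) and 5855 (D6) in lactation and 179 after involution. In A10, P7, H, G and the post-involution gland Csn1s2a was above Csn2, and at day 18.5 and in lactation it was below.

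Csn1s2b, the delta-casein, kept close to 0 until the end of pregnancy and then joined the others. Its luminal-gated level was between 0.00260 (E18.5) and 0.0386 (pre-puberty) in the 7 C57BL/6 and SWISS mammary libraries, and 0.0300 (A10), 0.00678 (P7) and 0.0171 (D12) in FVB/NJ adults. It was 0.201 (H) and 0.168 (G) at day 12.5, 3.81 (F4) and 6.59 (B4) at day 18.5, 3949 (F11) and 5406 (D6) in lactation and 0.156 after involution. Every pregnancy library lay above every virgin one, and the day 12.5, day 18.5 and lactation libraries did not overlap. How many of all genes were separated in this way was not counted.

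**Figure D1:**
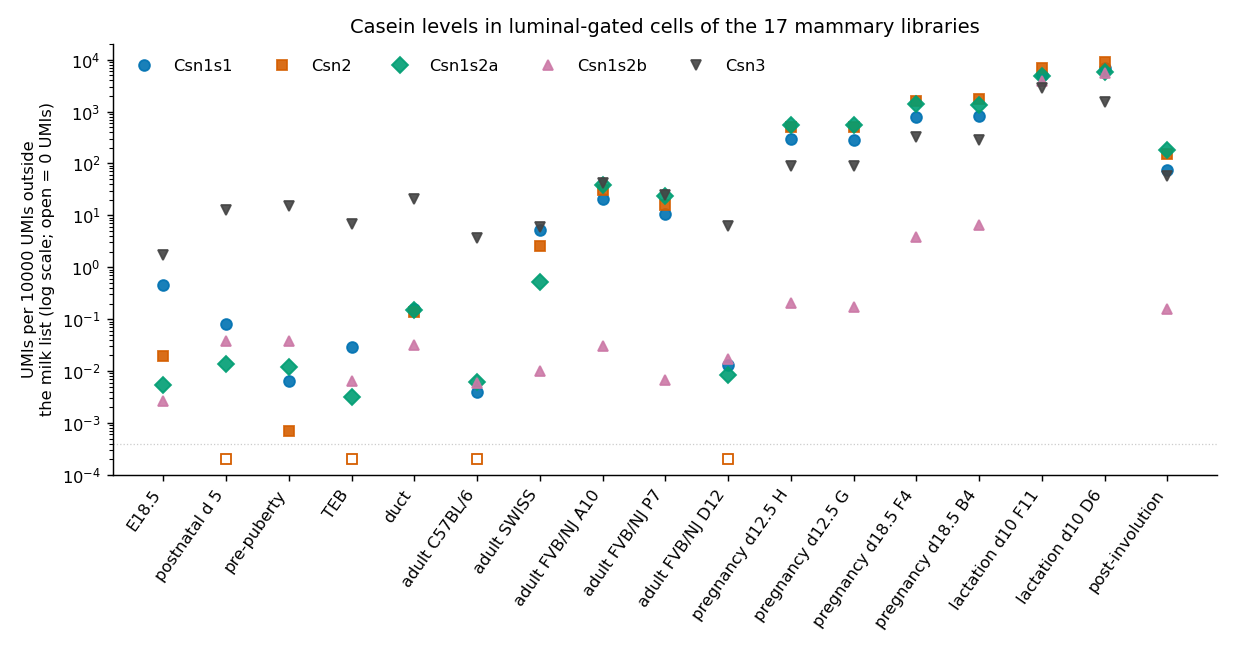
Level of each casein (UMIs per 10000 UMIs outside the milk list, log scale) in luminal-gated cells of the 17 mammary libraries, 1 point per casein and library, with open symbols for 0 UMIs. Csn3 leads in the virgin glands, 4 caseins stand between 88.0 and 541 at day 12.5 of pregnancy, and Csn1s2b joins them only in the 2 lactation libraries.

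The order of onset was read from each casein's own lactation level, with no test. At day 12.5 Csn1s2a had reached 10.1% of its lactation mean, Csn2 6.39%, Csn1s1 4.84%, Csn3 4.06% and Csn1s2b 0.00394%. At day 18.5 the values were 25.4% for Csn1s2a, 20.9% for Csn2, 14.05% for Csn3, 13.7% for Csn1s1 and 0.111% for Csn1s2b. Csn1s2a was thus the most advanced casein at both times and Csn1s2b the least, while the place of Csn3 at both times depended on the lactation library. At day 12.5 Csn3 stood at 5.72% against D6 alone, above Csn2 at 5.60% and Csn1s1 at 4.22%, and at 3.15% against F11 alone. At day 18.5, against D6 alone (without F11) Csn3 stood at 19.8%, above Csn2 at 18.3% and Csn1s1 at 11.96%, and against F11 alone (without D6) at 10.9%, below Csn2 at 24.3% and Csn1s1 at 16.1%. The lactation means behind these percentages were 5956 ± 1232 for Csn1s1, 7926 ± 1567 for Csn2, 5371 ± 685 for Csn1s2a, 4678 ± 1029.9 for Csn1s2b and 2175 ± 890.3 for Csn3 (SD, n = 2 each). This order leaves out the adult stage. From adults to day 12.5 the ratio of stage means was 3.60 for Csn3, 10.2 for Csn1s2b and 25.9 (Csn1s2a) to 32.4 (Csn2) for the others, so Csn3 was nearest in adults to its day 12.5 level. These ratios are of all luminal-gated cells, of which LP-gated cells were a larger part at day 12.5. In LP-gated cells alone the edgeR log2 differences were 0.52 for Csn3, 1.9997 for Csn1s2b and 3.39 (Csn1s2a) to 3.64 (Csn2) for the others. The part of the cell make-up in the ratios was not tested.

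The steps between stage means showed the same split. From day 12.5 to day 18.5 the ratio was 28.2 for Csn1s2b and between 2.52 (Csn1s2a) and 3.46 (Csn3) for the others. From day 18.5 to lactation it was 899 for Csn1s2b against 7.29 for Csn1s1, 7.12 for Csn3, 4.78 for Csn2 and 3.94 for Csn1s2a. The percentages depend on the scale, as caseins made up 57.8% (F11) and 58.6% (D6) of all UMIs of luminal-gated cells in lactation. In UMIs per cell, day 18.5 stood at 46.5% of lactation for Csn1s2a and 0.215% for Csn1s2b, and the step to lactation was 465-fold for Csn1s2b. The order of the 5 caseins at day 18.5 was the same in UMIs per cell, and with the luminal gate applied to all deposited barcodes Csn1s1 (13.7%) and Csn3 (13.5%) changed places. With no gate either, they stood at 13.6% and 12.6%.

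**Figure D2:**
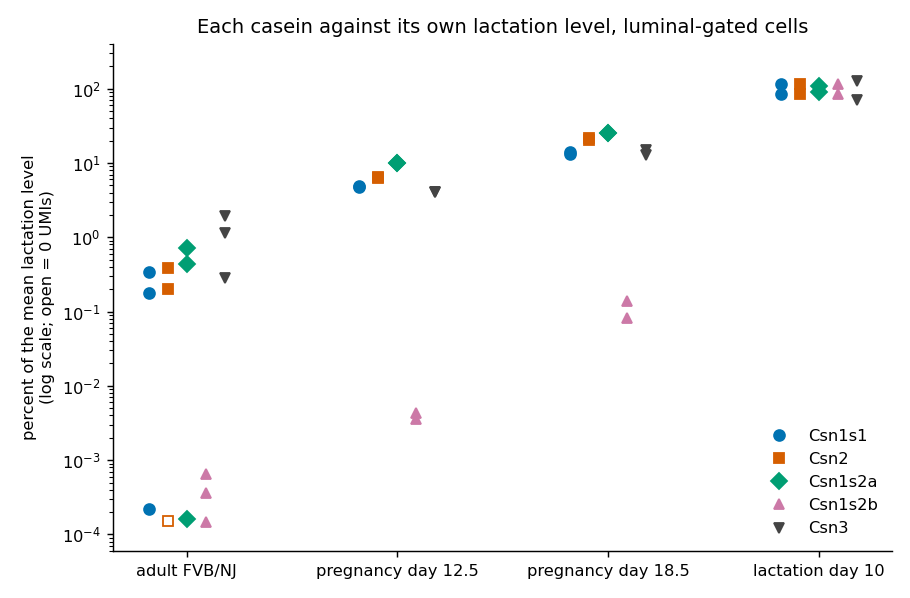
Level of each casein in luminal-gated cells as a percent of its own mean at lactation day 10 (log scale), 1 point per FVB/NJ library at the adult, pregnancy and lactation stages, with open symbols for 0 UMIs. At day 18.5 the group values run from 13.7 to 25.4 percent for 4 caseins and stand at 0.111 percent for Csn1s2b.

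Stage differences were tested on counts summed per library and gate over the 9 replicated FVB/NJ libraries, with edgeR's quasi-likelihood test and Benjamini-Hochberg adjustment over all genes. In LP-gated cells no casein was called higher at day 12.5. The LP-gated level of Csn2 was 79.0 (A10), 56.8 (P7) and 0 (D12) in adults, 525 (H) and 562 (G) at day 12.5, 1623 (F4) and 1792 (B4) at day 18.5 and 6679 (F11) and 9139 (D6) in lactation. For Csn1s1, Csn2, Csn1s2a and Csn1s2b the adult and day 12.5 libraries did not overlap, while for Csn3 the day 12.5 levels of 93.2 (H) and 96.8 (G) lay inside the adult range of 20.3 (D12) to 113 (A10). How many of all genes did not overlap was not counted, so this describes the levels only. Of the 5 caseins 0 were called higher at day 12.5, where 4.33% of all 13377 genes tested were. Their log2 differences were 3.44 (SE 1.67, edgeR adjusted p = 0.213) for Csn1s1, 3.64 (2.06, 0.283) for Csn2, 3.39 (1.82, 0.259) for Csn1s2a, 1.9997 (1.06, 0.24999) for Csn1s2b and 0.52 (0.93, 0.757) for Csn3. No casein had an unadjusted p under 0.05 there, and DESeq2 called 1, Csn1s2b.

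Between day 12.5 and day 18.5, 0 caseins were called in LP-gated cells (0.658% of all genes were called higher), with 1 at an unadjusted p under 0.05 and 1 called by DESeq2, Csn1s2b in both. Csn1s2b had the largest difference, from 0.202 (H) and 0.175 (G) to 3.49 (F4) and 6.69 (B4), which was 4.83 on the log2 scale (SE 1.32, edgeR unadjusted p = 0.00416, adjusted p = 0.117). It was called without P7 (adjusted p = 0.0128). The other 4 differed by 1.38 to 1.82 on the log2 scale, with standard errors of 1.06 to 2.24.

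At lactation 1 casein was called in LP-gated cells, Csn1s2b (1.85% of all genes were called higher). Its LP-gated level went to 3925 (F11) and 5493 (D6), a log2 difference of 9.99 (SE 1.66, edgeR adjusted p = 0.0125). The call was lost without F4 (adjusted p = 0.239), B4 (0.185) or D6 (0.0636), while the log2 difference stayed between 9.56 and 10.57 without any of these 3. The other 4 caseins differed by 2.06 to 2.98 on the log2 scale, and DESeq2 called Csn1s2b and Csn3.

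ML-gated cells had lower adult levels than LP-gated cells. Their Csn2 level was 12.8 (A10), 2.83 (P7) and 0 (D12) in adults, 365 (H) and 283 (G) at day 12.5, 1290 (F4) and 1189 (B4) at day 18.5 and 5280 (F11) and 8494 (D6) in lactation. At day 12.5 Csn1s2b was called, from 0.00949 (A10), 0.00243 (P7) and 0.0149 (D12) to 0.197 (H) and 0.205 (G), with a log2 difference of 4.28 (SE 0.94, edgeR adjusted p = 0.0236, 3.74% of 11569 genes called higher). The other 4 had log2 differences of 2.61 to 5.82, edgeR adjusted p of 0.116 to 0.138 and unadjusted p under 0.05. Without D12 the Csn1s1, Csn2 and Csn1s2a calls were added (adjusted p = 0.0358, 0.0363 and 0.0357), without A10 the Csn3 call was added (0.0414), and without H, G or F4 the Csn1s2b call was lost (0.154, 0.140 and 0.0518). The ML-gated cells of the 2 stages were not alike in their summed ML check genes. These stood at 7.87 (A10), 6.56 (P7) and 12.8 (D12) per 10000 in adults and 1.38 (H) and 1.66 (G) at day 12.5. Their LP check genes overlapped, at 16.3 (A10), 20.4 (P7) and 9.72 (D12) in adults and 13.03 (H) and 9.98 (G) at day 12.5. In LP-gated cells the LP check genes were lower at day 12.5, at 17.3 (H) and 17.6 (G) against 94.2 (A10), 182 (P7) and 61.2 (D12). Esr1, a member of the ML sum, overlapped between the stages, at 0.411 (A10), 0.279 (P7) and 0.444 (D12) against 0.224 (H) and 0.340 (G). The gate held 38.1% to 39.3% of cells in adults and 4.18% (H) and 3.67% (G) at day 12.5, and the part of this in the casein differences was not tested.

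From day 12.5 to day 18.5 no gene at all was called in ML-gated cells, 0% of 11569, and Csn1s2b was the 1 casein with an unadjusted p under 0.05 and the 1 that DESeq2 called. Its log2 difference was 4.55 (SE 1.096, edgeR adjusted p = 0.175), and without P7 it was called (adjusted p = 0.00952). At lactation Csn1s2b alone of the 5 was called, from 4.41 (F4) and 5.45 (B4) to 3067 (F11) and 4971 (D6), with a log2 difference of 9.93 (SE 1.38, edgeR adjusted p = 0.0146, 0.311% of genes called higher). As in LP-gated cells the call was lost without F4 (0.370), B4 (0.346) or D6 (0.0611).

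Whether the casein counts of a class stood above background was asked against non-epithelial cells of the same library, since free RNA and cells that share a droplet give casein UMIs to cells of any kind. In luminal-gated cells casein UMIs per cell were 85.1 (A10), 23.8 (P7) and 4.30 (D12) in adults, 902 (H) and 889.6 (G) at day 12.5, 1730.3 (F4) and 3012 (B4) at day 18.5, 5321 (F11) and 10914 (D6) in lactation and 263 after involution. In non-epithelial cells they were 8.38, 0.0581 and 0.111, then 53.3 and 28.6, then 85.9 and 112, then 876 and 619, and 9.80 after involution, in the same order. Non-epithelial counts thus stood higher at each later stage from day 12.5 to lactation, as luminal ones did. Their make-up was close to that of luminal-gated cells in lactation. In F11 the non-epithelial casein UMIs were 20.3% Csn1s1, 28.0% Csn2, 22.3% Csn1s2a, 18.1% Csn1s2b and 11.3% Csn3, against 21.6%, 29.0%, 20.8%, 16.8% and 11.9% in luminal-gated cells. In A10 the make-up differed, with 43.3% Csn1s2a and 14.9% Csn3 in non-epithelial against 29.3% and 32.2% in luminal-gated cells.

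The LP-gated cells stood above this background at every stage. In pregnancy most cells of the background gate carried basal RNA, as given below, so there the comparison is mostly with such cells. The Csn2 level of non-epithelial cells was 4.44 (A10), 0.159 (P7) and 0 (D12) in adults, 56.7 (H) and 31.8 (G) at day 12.5, 169 (F4) and 114 (B4) at day 18.5 and 1246 (F11) and 642 (D6) in lactation. In 1 fit with library as a block, 19 of 20 casein and stage pairs were called higher in LP-gated cells, where 16.1% of 14286 genes were in adults, 15.3% at day 12.5, 22.7% at day 18.5 and 24.4% in lactation. Leaving out Csn1s2b in adults, the called log2 differences ran from 3.51 to 6.49 (edgeR adjusted p of 1.07e-08 to 3.83e-05). The pair not called was Csn1s2b at day 12.5 (log2 2.59, edgeR adjusted p = 0.0620).

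Csn1s2b in adults rested on few counts. LP-gated cells of the 3 libraries held 87 UMIs of it, a level of 0.0643, and non-epithelial cells held none, so that with a floor of 3 counts over the group (0.0160) it was at least 4.01-fold higher. A10 held 76 of these UMIs, P7 2 and D12 9, so this bound is mostly that of A10. The edgeR adjusted p of Csn1s2b was 0.0219, and the call was lost without A10 (0.591) or P7 (0.0543).

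ML-gated cells were called higher in 18 of 20 pairs (18.6%, 10.1%, 18.1% and 20.8% of genes at the 4 stages), with log2 differences of 1.89 to 3.53, and in 15 of 20 by DESeq2, which called 2 of the 5 caseins in adults, 3 at day 12.5 and 5 at each later stage. The exceptions were Csn1s2b in adults (edgeR adjusted p = 0.278) and at day 12.5 (log2 2.55, adjusted p = 0.0937). Calls rested on single libraries for Csn1s1 and Csn1s2a in adults, lost without P7 (adjusted p = 0.0699 and 0.0635), for Csn1s1 at day 12.5, lost without G (0.0501), and for Csn1s2a in lactation, lost without D6 (0.0512).

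Within luminal cells the Csn3 levels of LP-gated and ML-gated cells were closer in pregnancy and lactation than in the 10 libraries from day 5 to the adults and after involution. Csn3 was 4.12 to 11.5 times as high in LP-gated as in ML-gated cells over those 10, and 1.099 times as high at E18.5. In pregnancy the ratio for the 4 caseins other than Csn1s2b was 1.14 to 2.08 over 16 values, and in lactation it was 1.04 to 1.31 over 8. Csn1s2b showed no such preference in pregnancy, with ratios of 0.790 to 1.23 over 4 libraries. After involution the ratio was again wide, with Csn2 at 402 in LP-gated and 46.4 in ML-gated cells and Csn3 at 152 and 16.6. These ratios carry no test. The summed check genes of the 2 gates were also closer, the ML check genes of ML-gated cells standing at 1.21 to 2.30 per 10000 in pregnancy against 6.56 to 12.8 in FVB/NJ adults. Esr1 by itself overlapped in these cells, at 0.224 to 0.386 against 0.279 to 0.444. In pregnancy 21.8% to 35.6% of split cells also lay within 1 UMI of the LP to ML line. The part of these in the narrower ratios was not tested.

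**Figure D3:**
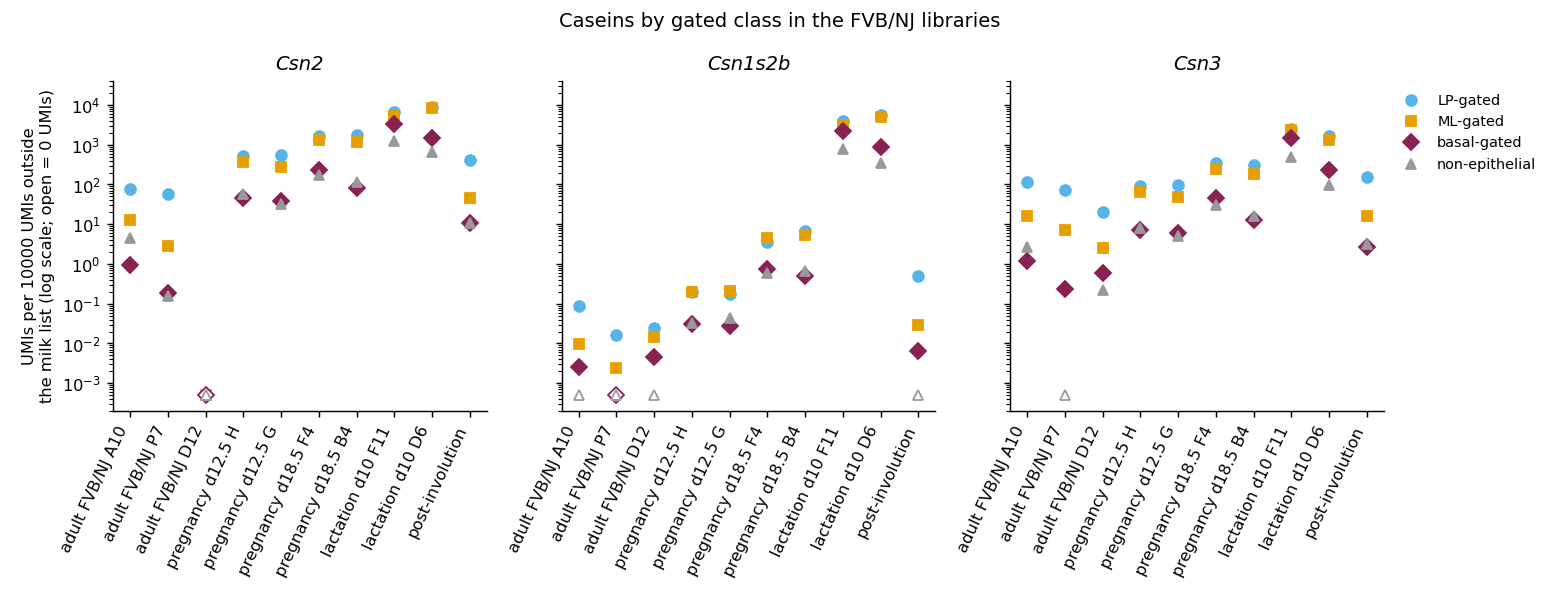
Levels of Csn2, Csn1s2b and Csn3 (UMIs per 10000 UMIs outside the milk list, log scale) by gate in the 10 FVB/NJ libraries, 1 point per library and gate, with open symbols for 0 UMIs. LP-gated and ML-gated levels lie closer in pregnancy and lactation, where the summed check genes of the 2 gates were closer too, and basal-gated cells lie near the non-epithelial level in pregnancy and above it in lactation, where Csn2 was 3248 and 1515 against 1246 and 642.

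Basal cells surround the alveolus and contract to eject milk. Basal-gated cells were not called above the background in pregnancy, and in lactation 3 caseins were. Their Csn2 level was 0.951 (A10), 0.184 (P7) and 0 (D12) in adults, 44.8 (H) and 38.0 (G) at day 12.5, 228 (F4) and 83.5 (B4) at day 18.5 and 3248 (F11) and 1515 (D6) in lactation. In pregnancy the basal-gated level of the 4 caseins other than Csn1s2b was 0.682 to 1.4996 times the non-epithelial one, and no casein was called at either day (log2 -0.17 to 0.45, with 0.448% and 0.224% of genes called higher, no casein at an unadjusted p under 0.05 and none by DESeq2). In lactation the ratio was 2.25 to 2.88 over 8 values.

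Of the 20 basal pairs 3 were called higher, all in lactation (10% of genes, and 10.4% in adults). They were Csn1s1 (log2 1.39, edgeR adjusted p = 0.0491), Csn2 (1.39, 0.0461) and Csn1s2b (1.45, 0.0111). The Csn1s1 and Csn2 calls were lost without H, G, F11 or D6 (Csn1s1 0.0779, 0.0774, 0.252 and 0.186, Csn2 0.0737, 0.0733, 0.220 and 0.169), and DESeq2 called none of the 3. Where basal-gated cells were limited to those without any Krt8 or Krt18 UMI and non-epithelial cells to those without any of the 4 keratins, 9 of 15 pairs were called higher, 5 in lactation (log2 2.42 to 2.72) and 4 at day 18.5 (1.48 to 1.96). The share of all genes called with that gate is not given here, so this count cannot be set against it. Basal-gated cells of lactation also carried luminal check genes (Epcam, Krt19, Krt7, Cldn3), at 9.74 (F11) and 6.61 (D6) per 10000 against 17.9 and 19.7 in LP-gated cells and 2.46 and 1.35 in non-epithelial cells, and the part of these in the casein difference was not tested.

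In adults 3 caseins were called lower in basal-gated than in non-epithelial cells, Csn1s1 (log2 -1.77, edgeR adjusted p = 0.0313), Csn2 (-1.83, 0.0203) and Csn1s2a (-2.64, 0.00267), where 11.8% of genes were called lower. They depended on A10, whose non-epithelial levels were 3.16, 4.44 and 7.88, and on the gate, since with the gate free of opposing keratins Csn2 (log2 0.50) and Csn1s2a (0.10) changed direction. DESeq2 called 1 of them, Csn1s2a. Without A10 the log2 differences turned to 1.69, 0.60 and 2.04 (adjusted p = 0.670, 0.843 and 0.539), and the Csn1s1 call was also lost without H (0.0594) or G (0.0593).

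The non-epithelial gate was itself mixed in pregnancy. Its cells carried the basal check genes (Acta2, Myh11, Trp63, Mylk, Oxtr) at 181 (H), 229 (G), 309 (F4) and 220.4 (B4) per 10000, close to the 198, 192, 360.0 and 274 of basal-gated cells, and cells without any UMI of them numbered 1, 2, 15 and 19. The comparison of basal-gated and non-epithelial cells in pregnancy therefore sets cells with basal RNA against other cells with basal RNA. The LP-gated and ML-gated comparisons in pregnancy were likewise with cells most of which carried basal RNA. In lactation 204 (F11) and 1178 (D6) non-epithelial cells had no such UMI, and their Csn2 level was 1144 and 711, close to the 1246 and 642 of the whole gate.

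Across stages the basal-gated and non-epithelial sums moved with the luminal ones. In basal-gated cells the log2 differences were 3.27 to 6.88 at day 12.5 (0 caseins called, 0.464% of genes called higher, 5 caseins at an unadjusted p under 0.05 and 4 called by DESeq2 of the 4 it gave an adjusted p) and 1.41 to 4.27 at day 18.5 (0 called, 0.00761% of genes, 1 unadjusted and 1 by DESeq2, Csn1s2b in both). At lactation Csn1s2b was called, from 0.762 (F4) and 0.488 (B4) to 2174 (F11) and 876 (D6), with a log2 difference of 11.37 (SE 1.35, edgeR adjusted p = 0.00270, 1.85% of genes called higher). The call was lost without F4 (0.0833) or B4 (0.119), and without P7 Csn3 was called as well (0.0218). In non-epithelial cells 0 caseins were called at day 12.5 (1.48% of genes, 4 caseins at an unadjusted p under 0.05) and 0 at day 18.5 (0% of genes, 1 unadjusted). DESeq2 gave an adjusted p to 1 of the 5 caseins there and called it at neither step. Csn1s2b was there likewise the 1 casein called at lactation, from 0.601 (F4) and 0.649 (B4) to 802 (F11) and 352 (D6), with a log2 difference of 10.09 (SE 1.13, edgeR adjusted p = 0.00134, 5.1% of genes called higher). Leaving out an adult library added calls in non-epithelial cells, which reached 4 at day 12.5 and 4 in lactation without A10, and 2 and 4 without P7. The share of all genes called in these fits is not given here, so the added calls cannot be set against it. Csn1s2b was called at lactation in all 4 gates.

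The make-up of the casein UMIs was compared next, since shares within a library do not depend on its depth or scaling. In luminal-gated cells Csn3 took 97.8% to 99.6% of casein UMIs in the day 5, pre-puberty, TEB, duct, C57BL/6 adult and D12 libraries, 78.6% at E18.5 and 42.3% in the SWISS adult. It took 32.2% (A10) and 32.9% (P7) in the other FVB/NJ adults, 6.26% (H) and 6.17% (G) at day 12.5, 8.0001% (F4) and 6.75% (B4) at day 18.5, 11.9% (F11) and 5.39% (D6) in lactation and 12.4% after involution. Kappa-casein was thus nearly the whole of the casein RNA in 6 virgin libraries, next to the smallest part in pregnancy and the smallest in lactation.

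Csn2 and Csn1s2a changed places. In FVB/NJ the ratio of Csn2 to Csn1s2a was 0.792 (A10) and 0.677 (P7) in adults, 0.931 (H) and 0.944 (G) at day 12.5, 1.16 (F4) and 1.27 (B4) at day 18.5, 1.40 (F11) and 1.54 (D6) in lactation and 0.835 after involution. D12 is left out, as it held no Csn2 UMI. In the SWISS adult Csn2 was the higher, with 14917 UMIs against 3051. The libraries of day 12.5, day 18.5 and lactation did not overlap, each stage lying above the one before. Csn2 took 35.3% (H) and 35.8% (G), then 38.9% (F4) and 41.0% (B4), then 29.0% (F11) and 31.5% (D6), and Csn1s2a 37.9% and 37.9%, then 33.6% and 32.2%, then 20.8% and 20.4%. Csn1s1 held 19.5% to 20.5% through pregnancy and 21.6% (F11) and 23.8% (D6) in lactation. Csn1s2b took 0.0141% (H), 0.0118% (G), 0.0930% (F4) and 0.157% (B4) in pregnancy and 16.8% (F11) and 18.9% (D6) in lactation.

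By an exact two-sided permutation test over all 7560 assignments of the 9 libraries to the 4 stages, the shares differed between stages with p = 0.0270 for Csn2, 0.0508 for Csn1s2b, 0.116 for Csn1s1, 0.177 for Csn3 and 0.271 for Csn1s2a, where the smallest p possible was 0.000794. None passed after adjustment over the 5 tests (adjusted p = 0.127, 0.127, 0.193, 0.221 and 0.271). Calls were added when an adult library was left out. Without D12, whose casein UMIs were 99.4% Csn3, the exact permutation test gave an adjusted p of 0.0159 for each of Csn1s1, Csn2 and Csn1s2a, 0.0357 for Csn1s2b and 0.124 for Csn3. Without A10 or without P7 it gave 0.0238 for Csn1s1 and for Csn2, and no other casein passed. With the 6 pregnancy and lactation libraries only, 4 caseins reached the smallest p that the exact test allows, 0.0667, and Csn3 had p = 0.867.

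**Figure D4:**
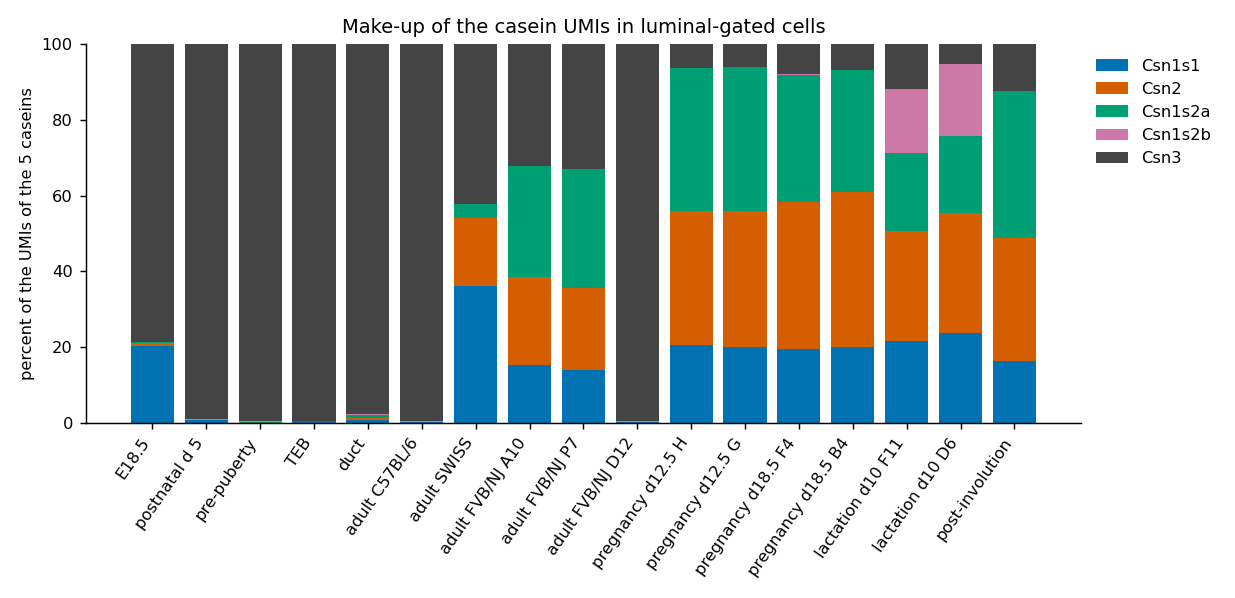
Share of each casein in the UMIs of the 5 caseins (percent, stacked to 100) in luminal-gated cells of each of the 17 mammary libraries. Csn3 fills 97.8 to 99.6 percent in 6 virgin libraries, and Csn1s2b takes 16.8 and 18.9 percent in the 2 lactation libraries and little elsewhere.

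Basal-gated cells had nearly the luminal make-up in D6, while after involution the order of Csn2 and Csn1s2a differed. In D6 their casein UMIs were 24.7% Csn1s1, 32.2% Csn2, 19.5% Csn1s2a, 18.6% Csn1s2b and 4.92% Csn3, against 23.8%, 31.5%, 20.4%, 18.9% and 5.39% in luminal-gated cells. After involution the basal-gated shares were 19.1%, 38.0%, 33.6%, 0.0237% and 9.33%, and those of non-epithelial cells were 17.8%, 39.2%, 31.4%, 0 and 11.6%. Luminal-gated cells had the other order there, with 571278 UMIs of Csn2 and 684557 of Csn1s2a. The ratio of Csn2 to Csn1s2a after involution was 1.13 in basal-gated and 1.25 in non-epithelial cells, both above the 0.815 of LP-gated cells. In H and G too LP-gated cells had the lowest ratio, 0.924 and 0.940, against 1.003 and 1.01 in basal-gated and 1.02 and 1.06 in non-epithelial cells. LP-gated cells were also lowest in F4 (1.11, against 1.28 in basal-gated and 1.42 in non-epithelial cells), B4 (1.25, against 1.36 and 1.39) and D6 (1.504, against 1.65 and 1.58). In F11 the order was the other way, with 1.31 in basal-gated, 1.26 in non-epithelial and 1.39 in LP-gated cells, and in A10 the ratio was 0.564 in non-epithelial, 0.7999 in LP-gated and 1.11 in basal-gated cells.

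Single cells showed how widely each casein was spread. A median luminal-gated cell held 0 Csn2 UMIs in every virgin library, 288.5 (H) and 282 (G) at day 12.5, 659 (F4) and 1110 (B4) at day 18.5 and 1376 (F11) and 3473 (D6) in lactation, and 4 after involution. The highest cell, in D6, held 11044. For Csn1s2b the share of luminal-gated cells with a UMI was 8.36% (H), 6.65% (G), 36.3% (F4) and 48.0% (B4), against 1.12%, 1.47%, 8.74% and 10.9% of non-epithelial cells, and 100% in lactation in both. With each cell thinned to 1000 UMIs the luminal-gated shares were 1.37%, 1.18%, 12.7% and 16.9%, and the non-epithelial ones 0%, 0%, 5.71% and 2.53%.

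Before pregnancy and after involution Csn2 was held by few cells. The 1% of luminal-gated cells with the most Csn2 held 47.8% of it in the SWISS adult, 37.8% in A10, 51.1% in P7 and 24.9% after involution, but 3.14% to 3.69% in pregnancy and 2.44% to 3.38% in lactation. Csn2 of the duct library was almost that of 1 cell, which held 179 of its 232 UMIs. For Csn3 the top 1% of cells held 18.8% in the SWISS adult, 10.9% in A10, 16.2% in P7 and 15.2% after involution, and between 7.82% (ducts) and 23.3% (E18.5) in the other 7 virgin libraries. Csn1s2b stayed concentrated through pregnancy, with 24.0% to 41.3% in the top 1% of cells (its few UMIs, spread evenly, would give 9.52% in G and 7.90% in H), and was spread in lactation, with 4.89% (F11) and 2.99% (D6). After involution 252 of its 596 UMIs were in 1 cell.

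Casein UMIs per luminal-gated cell after involution had a median of 12 and a 95th percentile of 1384, while at day 12.5 the medians were 807.5 (H) and 774. The leading casein of a cell, among cells with 10 or more casein UMIs, was Csn3 in 74.7% in A10, Csn1s2a in 46.8% and Csn2 in 45.5% in H, Csn2 in 47.9% and Csn1s2a in 45.7% in G, and Csn2 in 67.4% (F4) and 83.5% (B4) at day 18.5 and in 61.7% (F11) and 80.6% (D6) in lactation. After involution Csn1s2a led in 32.4%, Csn2 in 31.9% and Csn3 in 14.5%, so no casein led in most cells.

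**Figure D5:**
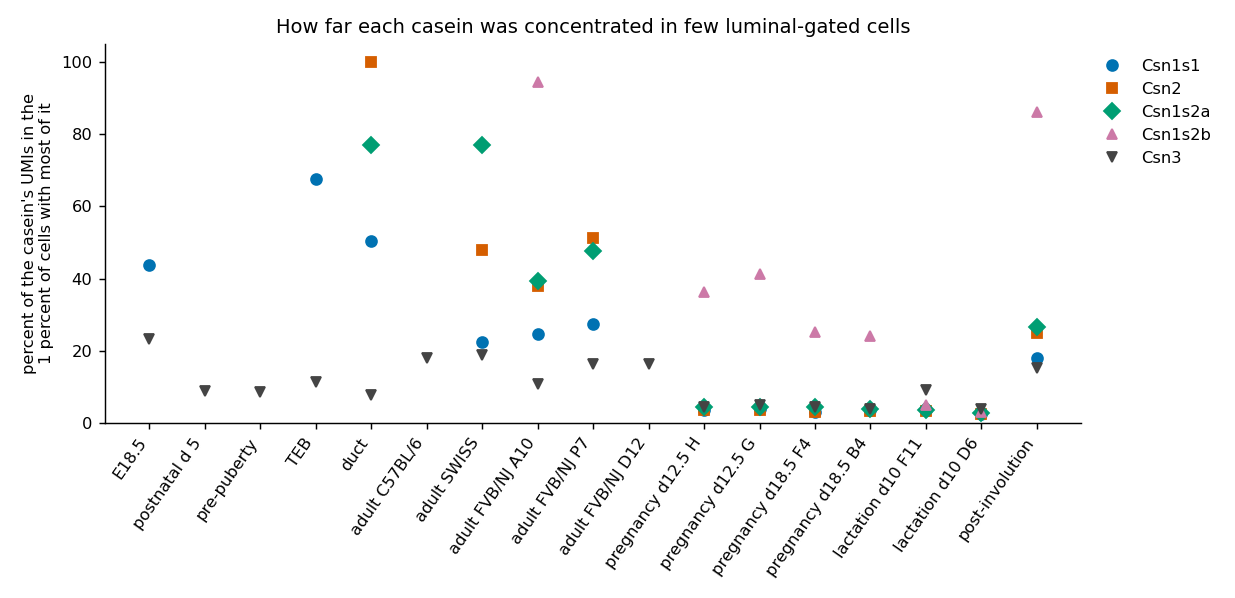
Percent of each casein's UMIs held by the 1 percent of luminal-gated cells with the most of it, in each of the 17 mammary libraries, for caseins with 100 or more UMIs there. Csn2 lies at 37.8 and 51.1 percent in A10 and P7 and at most 3.69 percent in pregnancy and lactation.

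Of the other milk proteins, Wap, Glycam1 and Lalba differed in how their levels ran over the stages, and timing was not tested. Wap, whey acidic protein, had LP-gated levels of 0.581 (A10), 0.0922 (P7) and 0 (D12) in adults, 11.5 (H) and 13.4 (G) at day 12.5, 435 (F4) and 563 (B4) at day 18.5 and 5219.8 (F11) and 8366 (D6) in lactation. Glycam1, a secreted mucin-like protein, was at 0 in all 3 adults, 96.6 (H) and 107 (G) at day 12.5, 529 (F4) and 606 (B4) at day 18.5 and 599 (F11) and 609 (D6) in lactation, and Lalba, alpha-lactalbumin of lactose synthesis, was at 38.7 (A10), 19.1 (P7) and 1.01 (D12), then 1.81 and 2.34, 30.9 and 43.9, and 199 and 213. Lalba therefore lay lower at day 12.5 than in A10 and P7 but higher than in D12, while Csn2 was higher at day 12.5 than in all 3 adults. Of the 8 other milk proteins, 1 was called higher (Glycam1, with 4.33% of genes called higher) and 1 lower (Mfge8, a protein of milk fat globules, log2 -2.78, edgeR adjusted p = 0.0284, with 4.98% of genes called lower) in LP-gated cells at day 12.5, with a median log2 difference of 0.07 against 0.04 over all genes. None of the 8 was called at day 18.5 (median 2.55 against -0.02, with 0.658% of genes called higher) or in lactation (1.01 against -0.04, with 1.85%). In ML-gated cells 4 of 8 were called higher at day 12.5 (3.74% of genes were), Glycam1, Wap (log2 7.55), Wfdc18 (4.62) and Xdh (3.19), and none of the 8 at the later steps (0% and 0.311% of genes were).

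Of 10 genes of prolactin signalling and casein transcription, Stat5a alone was called higher in LP-gated cells at day 12.5, with levels of 0.394 (A10), 0.335 (P7) and 0.252 (D12) against 0.711 (H) and 0.723 (G), a log2 difference of 1.20 (SE 0.33, edgeR adjusted p = 0.0463, with 4.33% of genes called higher). None was called at day 18.5 (0.658% of genes were called higher). Socs2, a STAT5-induced inhibitor of cytokine signalling, was called at lactation, from 0.113 (F4) and 0.142 (B4) to 0.411 (F11) and 0.613 (D6) (log2 2.15, SE 0.43, edgeR adjusted p = 0.0293, with 1.85% of genes called higher). In ML-gated cells at day 12.5 Socs2 was called higher (log2 2.22, with 3.74% of genes called higher) and Prlr, the prolactin receptor and a gate gene of these cells, lower (log2 -2.03, with 3.09% of genes called lower). The list medians in LP-gated cells were 0.33, 0.41 and -0.05 on the log2 scale at the 3 steps.

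Of 7 genes of casein secretion and phosphorylation, Fam20c, the kinase that phosphorylates caseins, was called in LP-gated cells at day 12.5, from 0.0928 (A10), 0.0670 (P7) and 0.0305 (D12) to 1.24 (H) and 1.20 (G), a log2 difference of 4.27 (SE 0.47, edgeR adjusted p = 0.00132, with 4.33% of genes called higher). It then stood at 3.14 (F4) and 2.34 (B4) at day 18.5 and 1.26 (F11) and 1.63 (D6) in lactation, and no member was called at the later steps (0.658% and 1.85% of genes were called higher). It was called in ML-gated cells at day 12.5 as well (log2 3.97, with 3.74% of genes called higher).

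The genes around the cluster had low levels. Of 6 neighbours fixed for comparison 5 were counted, and Odam, which lies between Csn1s2b and Csn3, did not pass 0.0447 per 10000 in luminal-gated cells of any mammary library, with 0.0206 (F11) and 0.0396 (D6) in lactation. Sult1d1, a sulfotransferase upstream of Csn1s1, reached 0.233 in D6. In LP-gated cells 2 neighbours passed the filter on low counts and 0 were called at any of the 3 steps (4.33%, 0.658% and 1.85% of genes were called higher). In ML-gated cells Sult1d1 was called higher at day 12.5 (log2 5.32, edgeR adjusted p = 0.00603, with 3.74% of genes called higher).

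The genes whose luminal-gated level over the 17 mammary libraries was most like the mean of the 5 caseins, by Pearson's r of log2(CPM + 1) among 7141 genes, were Lao1 (0.968), Cel (0.961), Wap (0.959), Thrsp (0.942) and Pigr (0.938). The caseins themselves had r of 0.983 (Csn2), 0.981 (Csn1s2a), 0.979 (Csn1s1), 0.939 (Csn3) and 0.816 (Csn1s2b) with that mean, which they are part of. The points share depth, strain and stage, so r is a description only. Csn1s2b had the lowest r of the 5 caseins. The 5 genes outside the family were picked for the highest r, so no casein can be judged against them, and the place of Csn1s2b among the 7141 is not given.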

How the data were processed

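RNA of single cells was captured with 10x Chromium 3′ chemistry. The authors made raw UMI counts per gene and cell barcode with Cell Ranger (version 3.1.0 and mm10 in the submitters' processing notes), and the deposited counts were used as they stood. Cells were kept with more than 500 genes, under the ceilings for genes and UMIs that the study set per library and under its mitochondrial limits of 15 to 25%. No doublet caller was run. Counts were summed per library and gate wherever 20 or more cells were present. edgeR 4.0.16 (quasi-likelihood, TMM, filterByExpr) tested all genes at an adjusted p under 0.05, and DESeq2 1.42.0 was an alternative. The edgeR stage fit was tested on simulated data for the step to day 12.5 in LP-gated and basal-gated cells, and the outcome is not given here. The simulation gave every gene the same dispersion, so it did not cover genes that vary between adult libraries as the caseins did. The permutation step was tried on fixed values, either separated or all equal. The edgeR fit against non-epithelial cells and the DESeq2 step were not tested. Intervals (scipy 1.17.1) and floors cover counting error only, and levels rest on the library totals given above. The genes named were the 5 caseins, members of 4 lists (milk, neighbouring, transcription and secretion genes) called in LP-gated cells or named for their role, and the 5 genes most like the casein mean among those with a mean of 10 CPM or more. The members and lists were chosen with earlier results of these data known. Alternatives changed scaling, filters, gates and libraries, and 3 were chosen after seeing the data, a stricter non-epithelial gate, all barcodes with no gate, and onset percentages without 1 library.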

Additional observations from a re-analysis of the deposited data

Results flagged for a closer look

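The E18.5 skin library, which entered no test, held 28 UMIs of Csn1s1 and 376 UMIs of Csn3, above the limit of 3 counts that a count of 0 allows. Its non-epithelial-gated cells held 83.3% of its casein UMIs and its luminal-gated cells 16.5%. Of its cells 39 were luminal-gated by their keratins, and these had a Csn3 level of 2.25 per 10000 UMIs outside the milk list, against 0.0617 in its non-epithelial-gated cells and 1.75 in luminal-gated cells of the E18.5 mammary rudiment. The LP-gated and ML-gated cells among the 39 held no Csn1s1. Whether the 39 cells came from mammary epithelium or from skin was not tested.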

How the results depend on the processing

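Counts of caseins called higher, here and in the next paragraph, are given without the share of all genes called under the same alternative. They cannot be read against it, except for 1 count without TMM. The counts of this paragraph are for the steps to day 12.5, day 18.5 and lactation. With DESeq2 they were 1, 1 and 2 in LP-gated, 4, 1 and 2 in ML-gated and 4, 1 and 2 in basal-gated cells. Without a low-count filter they were 3 and 1 at day 12.5 and day 18.5 in LP-gated cells, 4 at day 12.5 in ML-gated cells, 5, 1 and 5 in basal-gated cells, and 4 at day 12.5 and 5 in lactation in non-epithelial cells. Without TMM 2 were called in basal-gated cells in lactation, where 225 of 13149 genes were called higher. The median of all genes without TMM moved by -1.68 (LP-gated), -1.72 (ML-gated), -1.03 (basal-gated) and -0.54 (non-epithelial) on the log2 scale at that step. Leaving out 1 library at a time gave 0 to 0, 0 to 1 and 0 to 1 in LP-gated cells, 0 to 4, 0 to 1 and 0 to 1 in ML-gated cells, 0 to 1, 0 to 1 and 0 to 2 in basal-gated cells and 0 to 4, 0 to 0 and 1 to 4 in non-epithelial cells. A stage left with 1 library was assumed to vary like the others.

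Against non-epithelial cells, leaving out 1 library gave 18 to 20 pairs in LP-gated, 16 to 19 in ML-gated and 1 to 5 in basal-gated cells. Basal pairs numbered 0 with DESeq2, 0 without TMM, 7 without a low-count filter, 1 with all barcodes, and 9 of 15 with the gate free of opposing keratins, which left under 20 non-epithelial cells at day 12.5. With non-epithelial cells free of basal check genes, chosen after seeing the data, 9 of 10 LP-gated and 9 of 10 ML-gated pairs were called, the pregnancy stages having too few such cells. In adult basal-gated cells the log2 differences without 1 library ran from -1.93 to 1.69 (Csn1s1), -2.09 to 0.60 (Csn2) and -3.07 to 2.04 (Csn1s2a), reversed without A10, and reversed to 0.50 (Csn2) and 0.10 (Csn1s2a) with the keratin-free gate. The cause was not tested.

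The adjusted permutation p of shares ranged from 0.0159 to 0.356 (Csn1s1), 0.0159 to 0.356 (Csn2), 0.0159 to 0.470 (Csn1s2a), 0.0357 to 0.339 (Csn1s2b) and 0.124 to 0.356 (Csn3) without 1 library each, and was 0.0397 for Csn1s2b with the keratin-free gate. Day 18.5 as a percent of lactation was 24.99 (Csn1s1), 38.3 (Csn2), 46.5 (Csn1s2a), 0.215 (Csn1s2b) and 28.0 (Csn3) in UMIs per cell, 39.4, 60.0, 71.5, 0.326 and 43.8 with cells thinned to 1000 UMIs, and 24.8 (Csn1s2a) and 12.6 (Csn3) with all barcodes and no gate, both choices at once. Leaving out 1 library of day 18.5 or lactation gave 11.96 to 16.1 (Csn1s1), 18.3 to 24.3 (Csn2), 23.3 to 27.9 (Csn1s2a), 0.0815 to 0.141 (Csn1s2b) and 10.9 to 19.8 (Csn3). These last 2 settings were chosen after seeing the data. Of 1965 values of single genes under alternatives, 1827 stayed on their side of the threshold, and 85 became and 48 ceased to be calls. In 5 a call of the main setting changed direction, and direction was not followed for values not called there. No paired analysis was possible because the 4 replicated stages share no replicate number, and the comparisons between gates had library as a block.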

Other observations

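In the pre-pubertal gland Csn1s2b had its highest level in basal-gated cells. Of 2371 basal-gated cells 173 held a UMI of it, 7.30%, against 6.24% of LP-gated and 0.481% of non-epithelial cells, and its level was 0.100 per 10000 in basal-gated, 0.0661 in LP-gated, 0.0197 in ML-gated and 0.00955 in non-epithelial cells. With each cell thinned to 1000 UMIs the shares were 1.31% of basal-gated and 0.550% of LP-gated cells. Basal-gated cells with Csn1s2b held Csn3 in 28.3% and the others in 19.7%, and the basal check genes stood at 176 and 157 per 10000. At day 5, 24 of 2271 basal-gated cells held a UMI, and these carried the basal check genes at 183 per 10000 against 24.97 in the others. They also differed in the keratins of the gate, with 70.5 against 144 per 10000 for the basal and 11.15 against 1.96 for the luminal keratins, the luminal check genes stood at 6.41 against 3.44, and 50% of them held Csn3 against 6.85% of the others. In ducts 0 of 709 did, which allows up to 0.423%. Each stage is 1 library, so none of this has a replicate check.

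The spread of single cells differed between the 2 lactation libraries for Csn3, whose top 1% of luminal-gated cells held 9.098% in F11 and 3.84% in D6, while for Csn2 the values were 3.38% and 2.44%.

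Before puberty Csn1s1 rested on 9 UMIs in luminal-gated cells, 8 of them in 1 cell, and in TEBs 17 of 24 Csn1s2b UMIs were in 1 cell.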
